A study of Homo sapiens with 6 samples.

Results

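Wnt negative-feedback target genes are genes that β-catenin signalling switches on and whose products, for the most part, dampen or tune the same pathway. They were described here in SW480 cells, a long-established line from a human colorectal adenocarcinoma, treated for 24 h with the vehicle DMSO or with MPM-1, a fluorescent probe that targets mitochondria and that the sample labels also call WT4. The genes were taken by symbol from a list of 10, namely AXIN2, NKD1, NOTUM, RNF43, ZNRF3, APCDD1, SP5, LGR5, DKK1 and TNFRSF19. That rule uses the symbols alone, but the list was chosen with earlier results of these data known. Of the 10 symbols, 9 were among the 12982 genes of the expression table, in which every gene had at least 115 counts summed over the 6 libraries, and DKK1 was not analysed here. Each treatment had 3 libraries of mRNA from total RNA, all from SW480 cells labelled with the genotype WT, and the RNA-sequencing asked which genes and pathways changed with MPM-1. The concentration of MPM-1 in these libraries was not given in the sources used here. Because SW480 is a single line grown alone, other cells of a tumour are not represented. Nothing in the labels says whether the 3 libraries of a treatment came from separate cultures, so the p-values measure the spread between these libraries, which may be technical. In bulk RNA, fewer expressing cells and less RNA per cell cannot be told apart.

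In the canonical Wnt pathway, a destruction complex built on the scaffolds AXIN and APC marks β-catenin for degradation, and Wnt binding to Frizzled and LRP receptors blocks that complex, so that β-catenin enters the nucleus and works with TCF factors on target promoters. Several targets feed back on the pathway at different levels. AXIN2 and NKD1 act inside the cell on the destruction complex and on Dishevelled, RNF43 and ZNRF3 remove Frizzled receptors from the cell surface, NOTUM, APCDD1 and DKK1 act on Wnt ligands or their receptors outside the cell, SP5 represses transcription, LGR5 binds R-spondins, and TNFRSF19 (also called TROY) is a membrane receptor of the tumour necrosis factor receptor family. SW480 carries a truncated APC, and colorectal cells of that kind are known for high expression of Wnt target genes such as AXIN2 without added Wnt.

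TCF factors recognise short sequences, and the proximal promoters of the genes on the list were read for them. RefSeq promoter windows (assembly GRCh38.p14) were at hand for 5 of the 10 genes, namely RNF43, APCDD1, SP5, DKK1 and TNFRSF19, with 7 windows in all. The letters CTTTGAT and CTTTGAA were searched on both strands in the bases before each start, and a single stretch cannot match both. SP5 held 3 matches and DKK1 held 1, and the windows of RNF43, APCDD1 and TNFRSF19 held none. Over 35116 promoter windows of 250 bases, 5.94% held either motif, 2.26% held CTTTGAT and 3.8% held CTTTGAA. The SP5 promoter is printed because it carries the matches, and the APCDD1 promoter because it belongs to a gene that fell with MPM-1 and carries none. SP5 lies on the plus strand of chromosome 2 and its window covers chr2:170715087-170715336. APCDD1 lies on the plus strand of chromosome 18 and its window, which stops just before the annotated transcript start, covers chr18:10454385-10454627. Both are written 5′ to 3′, and the capitals mark the motif, which reads TTCAAAG where CTTTGAA is on the other strand.
SP5: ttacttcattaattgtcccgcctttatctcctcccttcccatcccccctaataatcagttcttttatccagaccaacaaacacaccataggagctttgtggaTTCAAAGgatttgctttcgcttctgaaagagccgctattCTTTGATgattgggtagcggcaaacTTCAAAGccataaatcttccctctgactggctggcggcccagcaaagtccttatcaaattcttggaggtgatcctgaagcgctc
APCDD1: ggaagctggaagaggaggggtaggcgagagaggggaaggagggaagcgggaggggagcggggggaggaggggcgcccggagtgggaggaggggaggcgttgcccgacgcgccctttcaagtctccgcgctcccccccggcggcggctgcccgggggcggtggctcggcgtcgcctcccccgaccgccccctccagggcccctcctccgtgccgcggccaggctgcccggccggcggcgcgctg
The SP5 matches began 148, 109 and 84 bases before the RefSeq start, which lies a few bases before the GENCODE start given for SP5 among the gene positions. A match is a run of letters and not a measured binding site, and the absence of a match says only that these letters are not in that window.

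The libraries held 31733667 to 40269820 counts, and 3 counts corresponded to 0.0695 to 0.0985 CPM, the counts scaled to the library total after TMM normalisation. The first principal component of all genes took 72.8% of the variance and separated the treatments. The share of counts from mitochondrially encoded genes was 8.28% to 9.11% with DMSO and 1.95% to 2.35% with MPM-1, and its part in the results was not tested. Of 15 colorectal epithelial markers, 11 were in the table, with EPCAM, the epithelial adhesion molecule, at 676 ± 50 CPM with DMSO and 676 ± 33.3 with MPM-1 (SD, n = 3), while CEACAM5, FABP1, GPA33 and MUC2 were not in it. The summed level of these 11 markers was 8931 to 10372 CPM with DMSO and 12918 to 14536 CPM with MPM-1, and none was at 0. That sum was dominated by the keratins KRT8, KRT18 and KRT19, which were higher in every MPM-1 library, while the median log2 fold change of the 11 was −0.00, with 6 below 0. CDX2 and KRT20 fell (log2 fold changes −2.20 and −2.03), and CDX1 (−0.98), VIL1 (−0.88) and CDH17 (−0.47) were lower with no overlap but not called. Like these keratins, CDH1 (0.82) and LGALS4 (0.50) were higher in every MPM-1 library and not called. Of the 11, 5 were lower and 5 higher with no overlap, beside 4317 and 4024 of all 12982 genes. Of 15 markers of blood, endothelial, stromal and other cells, 3 (CD14, COL1A1 and ACTA2) were in the table, with a summed level of 24.6 to 26.5 CPM with DMSO and 15 to 16.9 CPM with MPM-1 and none of the 3 at 0, and the defining markers PTPRC, PECAM1 and CD3E were not. The part of these markers in the results was not tested.

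All 9 measured feedback genes had a log2 fold change below 0 with MPM-1, and 6 of them fell past both thresholds used throughout, a Benjamini-Hochberg adjusted p under 0.01 in edgeR's quasi-likelihood test and a change of 1 or more on the log2 scale in either direction. Those 6 were AXIN2, NOTUM, APCDD1, TNFRSF19, RNF43 and ZNRF3. Across all genes tested the same rule called 8.75% lower (1136 genes) and 5.58% higher (725 genes). Since the list was chosen with earlier results of these data known, the comparison with all genes is a description. None of the 9 was called higher by edgeR, 0 were higher at an unadjusted p under 0.05, and DESeq2 and limma also called 0 higher. The median log2 fold change of the 9 was −1.42, against −0.03 for all genes, of which the middle 90% lay between −1.45 and 1.11. In 8 of the 9 genes the highest MPM-1 library was under the lowest DMSO library, which held for 33.3% of all genes, and in SP5 the treatments overlapped. The same 8 genes were lower at an adjusted p under 0.05 with no fold threshold, against 28.8% of all genes.

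**Figure D1:**
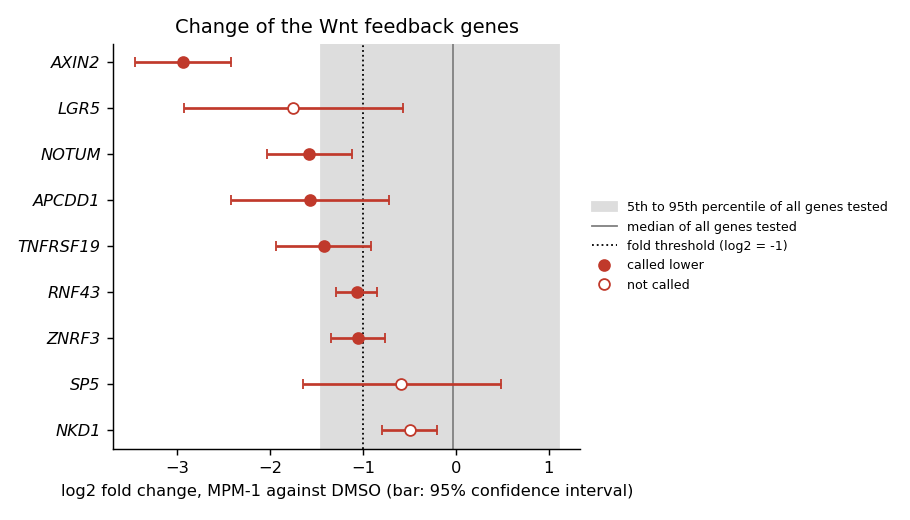
The log2 fold change of each measured feedback gene (MPM-1 against DMSO, 3 libraries each) is plotted as a point with its 95% confidence interval (filled where called lower), over the middle 90% of all genes (grey band), their median (solid line) and the fold threshold (dotted line). All 9 points lie below 0, from −2.94 for AXIN2 to −0.50 for NKD1, and only the interval of SP5 crosses 0.

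AXIN2, the inducible scaffold of the destruction complex and a gene widely read as a gauge of β-catenin activity, had the largest fall of the 9. Its gene lies on the minus strand of chromosome 17 from 65528563 to 65561647 (GRCh38, as are the positions that follow). AXIN2 stood at 125, 149 and 136 CPM in DMSO replicates 1, 2 and 3 and at 10.7, 23.3 and 19.4 CPM in MPM-1 replicates 1, 2 and 3. The treatments were far apart, with the highest MPM-1 library well under the lowest DMSO library, and MPM-1 replicate 1 was the lowest of all. The mean went from 136 ± 12.3 to 17.8 ± 6.42 CPM (SD, n = 3), a 7.67-fold fall (log2 fold change −2.94, SE 0.23, 95% interval −3.46 to −2.42, adjusted p = 8.8e-06 in edgeR's quasi-likelihood test). The call held in 14 of 14 alternative settings. The AXIN2 gene shares 1316 exonic bases on the same strand with AC004805.1, which was not in the table.

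AXIN1, the constitutive paralogue that is not a feedback target, offered a comparison inside the same complex. FPKM is a level scaled by length, and the deposited FPKM did not follow the counts by a fixed factor. In ZNRF3, MPM-1 replicate 3 was above replicate 2 in CPM (25.1 against 22.9) but below it in FPKM (3.71 against 4.17). In FPKM, AXIN1 was at 27.43, 25.04 and 25.16 with DMSO and at 31.21, 29.55 and 31.61 with MPM-1. The ratio of AXIN2 to AXIN1 was 1.102, 1.501 and 1.372 in the DMSO libraries and 0.07791, 0.1895 and 0.1385 in the MPM-1 libraries. AXIN2 was therefore the higher of the pair in every DMSO library and the lower in every MPM-1 library. On the log2 scale the ratio was 0.39 ± 0.23 with DMSO and −2.98 ± 0.65 with MPM-1 (SD, n = 3), a difference of −3.37. An exact permutation test (two-sided) gave p = 0.1, the smallest p that 3 libraries against 3 allow, and p = 0.1 after adjustment over the 3 ratios tested.

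NKD1, a Dishevelled-binding antagonist that also acts inside the cell, moved far less. It lies on the plus strand of chromosome 16 from 50548330 to 50649249 and stood at 14.7, 14 and 13.1 CPM with DMSO and at 9.91, 9.23 and 10.5 CPM with MPM-1. The treatments did not overlap, and the libraries of each treatment lay close together. The log2 fold change was −0.50 (SE 0.13, 95% interval −0.80 to −0.20, adjusted p = 0.0108 in edgeR's quasi-likelihood test), short of both thresholds. NKD1 was called in 0 of 12 alternative settings that kept both thresholds, and in each its log2 fold change was under 1 in size. Its interval lay wholly above that of AXIN2. NKD1 shares 67 exonic bases on the other strand with AC007608.1, which was not in the table.

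**Figure D2:**
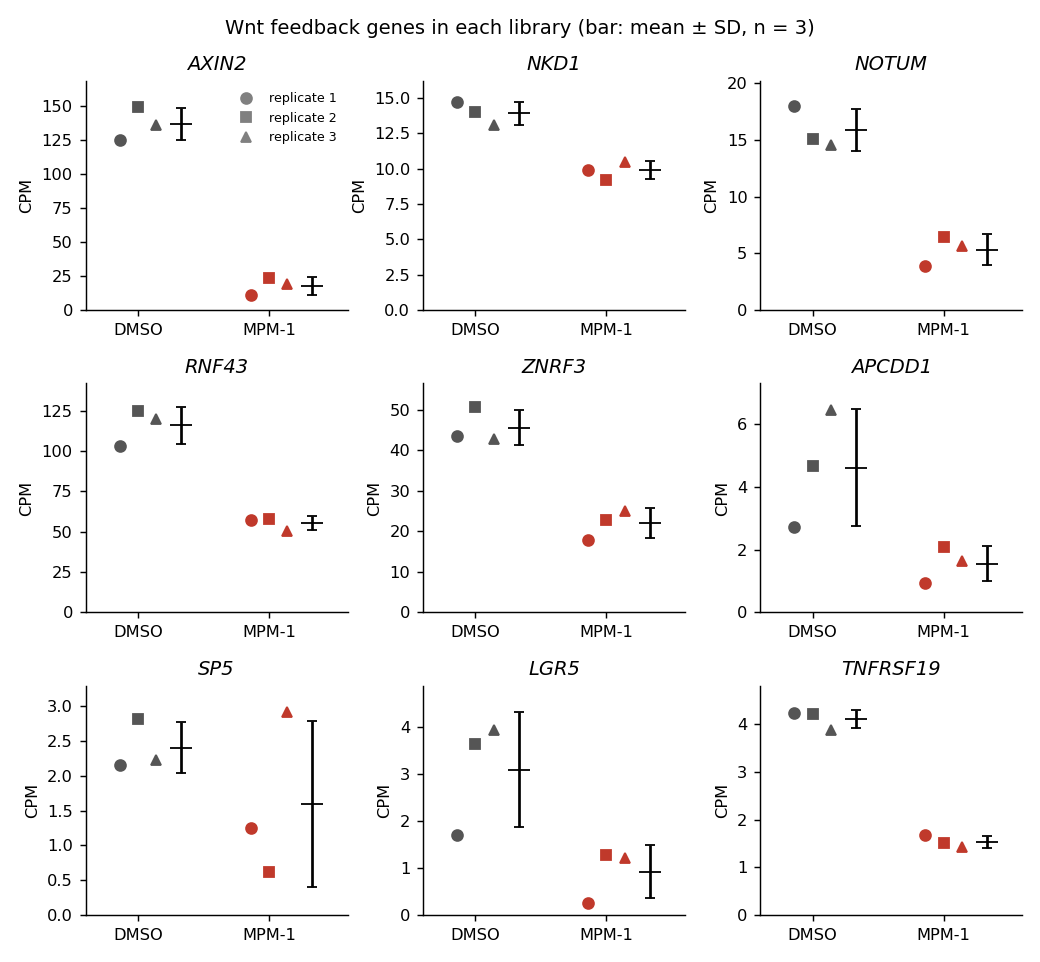
Each panel plots CPM on a linear axis from 0 for a measured feedback gene, with a point for each library and a bar for the mean and SD of 3 libraries with DMSO or MPM-1. Symbol shapes mark the replicates, and the 2 treatments are apart in every panel except SP5, where MPM-1 replicate 3 at 2.92 CPM is above all DMSO libraries.

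RNF43 and ZNRF3, the membrane E3 ubiquitin ligases that clear Frizzled from the cell surface, each fell by a little over 2-fold. RNF43 lies on the minus strand of chromosome 17 from 58352500 to 58417595 and stood at 103, 125 and 120 CPM with DMSO and at 57.6, 57.8 and 50.2 CPM with MPM-1. The MPM-1 libraries lay close together and far below the DMSO libraries. The mean went from 116 ± 11.5 to 55.2 ± 4.33 CPM (SD, n = 3), a 2.1-fold fall (log2 fold change −1.07, SE 0.10, 95% interval −1.29 to −0.85, adjusted p = 2.05e-05 in edgeR's quasi-likelihood test). Without MPM-1 replicate 3 the log2 fold change was −0.99 and missed the fold threshold, and the call held in 14 of 15 settings. RNF43 shares 4326 exonic bases on its own strand with AC004687.2, so reads could be assigned to either, but AC004687.2 held only 55, 45 and 87 counts with DMSO and 8, 20 and 33 with MPM-1 beside 1686 to 5400 for RNF43. With the counts of both added, the log2 fold change was again −1.07 (adjusted p = 1.73e-05). RNF43 also shares 143 exonic bases on the same strand with SUPT4H1, a transcription elongation factor gene with 3153 to 4781 counts a library. SUPT4H1 had a log2 fold change of 0.01 (95% interval −0.19 to 0.20). On the other strand, RNF43 shares 1521 exonic bases with TSPOAP1-AS1, which was not in the table.

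ZNRF3 lies on the plus strand of chromosome 22 from 28883592 to 29057487. It stood at 43.4, 50.6 and 42.7 CPM with DMSO and at 17.9, 22.9 and 25.1 CPM with MPM-1, with no overlap. The mean went from 45.6 ± 4.36 to 22 ± 3.67 CPM (SD, n = 3), a 2.07-fold fall (log2 fold change −1.05, SE 0.13, 95% interval −1.35 to −0.76, adjusted p = 0.000135 in edgeR's quasi-likelihood test). The estimate sat close to the fold threshold, and the call was lost without DMSO replicate 2 (−0.97), without MPM-1 replicate 1 (−0.91) and in the 3 limma fits on log2 FPKM (−0.94, −0.94 and −0.80), holding in 9 of 14 settings. In FPKM the ratio of RNF43 to ZNRF3 was 2.85, 2.959 and 3.162 with DMSO and 2.848, 2.341 and 2.226 with MPM-1. Its log2 value was 1.58 ± 0.08 and 1.30 ± 0.19 (SD, n = 3), a difference of −0.28. The highest MPM-1 library was almost level with the lowest DMSO library (exact permutation test, two-sided, p = 0.1 and adjusted p = 0.1). From the counts the log2 fold changes were nearly equal, −1.07 for RNF43 and −1.05 for ZNRF3, so RNF43 was not shown to fall further. The Frizzled receptors that these ligases act on had a summed FPKM over 8 genes of 23.55, 28.33 and 27 with DMSO and of 10.31, 11.5 and 11.76 with MPM-1. The sum itself was not tested. Of the 8, 5 passed both thresholds, FZD3 and FZD6 had log2 fold changes of −0.54 and −0.97 without being called, and FZD5, the highest Frizzled with MPM-1 at 3.81 ± 0.483 FPKM, was at 4.52 ± 0.177 FPKM with DMSO, with overlapping treatments (log2 fold change −0.09, 95% interval −0.34 to 0.16). These 3 were named after their values were seen.

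NOTUM, a secreted enzyme that removes the lipid from Wnt ligands, and APCDD1, a membrane glycoprotein that binds Wnt and LRP receptors, fell by 1.58 and 1.57 on the log2 scale. NOTUM lies on the minus strand of chromosome 17 from 81952507 to 81961840 and stood at 18, 15.1 and 14.6 CPM with DMSO and at 3.84, 6.44 and 5.69 CPM with MPM-1. The treatments were apart, with MPM-1 replicate 1 lowest. The mean went from 15.9 ± 1.82 to 5.32 ± 1.34 CPM (SD, n = 3), a 2.98-fold fall (log2 fold change −1.58, SE 0.21, 95% interval −2.04 to −1.12, adjusted p = 0.000171 in edgeR's quasi-likelihood test), and the call held in 14 of 14 settings.

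APCDD1 lies on the plus strand of chromosome 18 from 10454628 to 10489948 and was among the less abundant genes, with 90, 201 and 257 counts in the DMSO libraries and 29, 64 and 55 in the MPM-1 libraries. These counts corresponded to 2.73, 4.65 and 6.45 CPM with DMSO and to 0.952, 2.08 and 1.64 CPM with MPM-1. The treatments did not overlap, but the DMSO libraries were spread widely, with replicate 1 lowest and replicate 3 highest. The mean went from 4.61 ± 1.86 to 1.56 ± 0.569 CPM (SD, n = 3), a 2.96-fold fall (log2 fold change −1.57, SE 0.38, 95% interval −2.42 to −0.72, adjusted p = 0.00608 in edgeR's quasi-likelihood test). The call was lost without DMSO replicate 2 (adjusted p = 0.0201), DMSO replicate 3 (0.0294), MPM-1 replicate 1 (0.017) or MPM-1 replicate 3 (0.0213) in the same test, with log2 fold changes of −1.56, −1.25, −1.30 and −1.59.

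SP5, a zinc finger factor of the Sp family that represses Wnt target genes, did not separate the treatments. Its promoter held the 3 motif matches printed above, and a link between matches and expression was not tested. SP5 lies on the plus strand of chromosome 2 from 170715351 to 170718078 and had 71, 122 and 89 counts with DMSO and 38, 19 and 98 with MPM-1. In CPM these were 2.15, 2.82 and 2.23 with DMSO and 1.25, 0.618 and 2.92 with MPM-1. The highest and the lowest of the 6 libraries were both MPM-1 libraries, replicate 3 and replicate 2. The log2 fold change was −0.59 (SE 0.48, 95% interval −1.65 to 0.48, adjusted p = 0.319 in edgeR's quasi-likelihood test), an interval that holds no change as well as a fall of more than 2-fold. It was −1.35 without MPM-1 replicate 3 and −0.18 without MPM-1 replicate 2, and either library moved it by more than 1.5 times.

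LGR5, a receptor for R-spondins and a marker of intestinal stem cells, was lower with MPM-1 in every library but was not called. It lies on the plus strand of chromosome 12 from 71439770 to 71586310 and had 56, 157 and 157 counts with DMSO and 8, 39 and 41 with MPM-1. In CPM these were 1.7, 3.64 and 3.94 with DMSO and 0.263, 1.27 and 1.22 with MPM-1. Replicate 1 was the lowest library of each treatment, and the lowest DMSO library was still above the highest MPM-1 library. The log2 fold change was −1.75 (SE 0.53, 95% interval −2.93 to −0.57, adjusted p = 0.0177 in edgeR's quasi-likelihood test), larger in size than that of 5 of the 6 called genes but with the widest interval. DESeq2 called it (−1.73, adjusted p = 0.00197), as did edgeR with the replicate number as a block (−1.88, adjusted p = 0.0026), although the numbers were not found to pair the libraries. Leaving out a library in turn gave log2 fold changes from −2.04 to −1.3, with adjusted p up to 0.0575 without DMSO replicate 2 and 0.0593 without DMSO replicate 3 in edgeR's quasi-likelihood test. TSPAN8, which overlaps the LGR5 gene on the other strand, shares no exonic base with it and had a log2 fold change of −0.05. LGR5 shares 208 exonic bases on the other strand with AC078860.1, which was not in the table.

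TNFRSF19, a Wnt-induced receptor that is expressed with LGR5 in intestinal stem cells, had tighter replicates than APCDD1, SP5 and LGR5, the other genes with the fewest counts. It lies on the plus strand of chromosome 13 from 23570370 to 23676104 and stood at 4.24, 4.21 and 3.89 CPM with DMSO and at 1.67, 1.5 and 1.43 CPM with MPM-1. The 2 treatments formed separate and narrow bands. The mean went from 4.12 ± 0.196 to 1.53 ± 0.126 CPM (SD, n = 3), a 2.68-fold fall (log2 fold change −1.42, SE 0.23, 95% interval −1.94 to −0.91, adjusted p = 0.0006 in edgeR's quasi-likelihood test), and the call held in 12 of 12 settings.

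Levels were compared between genes in FPKM. With DMSO, AXIN2 was highest at a mean of 34.11 FPKM, followed by RNF43 at 21.6, ZNRF3 at 7.216, NOTUM at 6.974, APCDD1 at 1.263, SP5 at 1.198, TNFRSF19 at 0.9899, NKD1 at 0.8306 and LGR5 at 0.6845. Neighbours whose libraries overlapped were ZNRF3 and NOTUM, APCDD1 and SP5, SP5 and TNFRSF19, and NKD1 and LGR5. Beyond its neighbours, APCDD1 (0.7353 to 1.779 FPKM) also overlapped TNFRSF19, NKD1 and LGR5. The order within each of these pairs was not fixed by these data. With MPM-1, RNF43 was highest at 9.136 FPKM, followed by AXIN2 at 4.137, ZNRF3 at 3.725, NOTUM at 2.157, SP5 at 0.706, NKD1 at 0.5281, APCDD1 at 0.3915, TNFRSF19 at 0.3248 and LGR5 at 0.1812. Here the libraries of AXIN2 and ZNRF3, SP5 and NKD1, NKD1 and APCDD1, and APCDD1 and TNFRSF19 overlapped. So did those of AXIN2 and NOTUM, SP5 and APCDD1, SP5 and TNFRSF19, and APCDD1 and LGR5, which were not neighbours in the order.

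**Figure D3:**
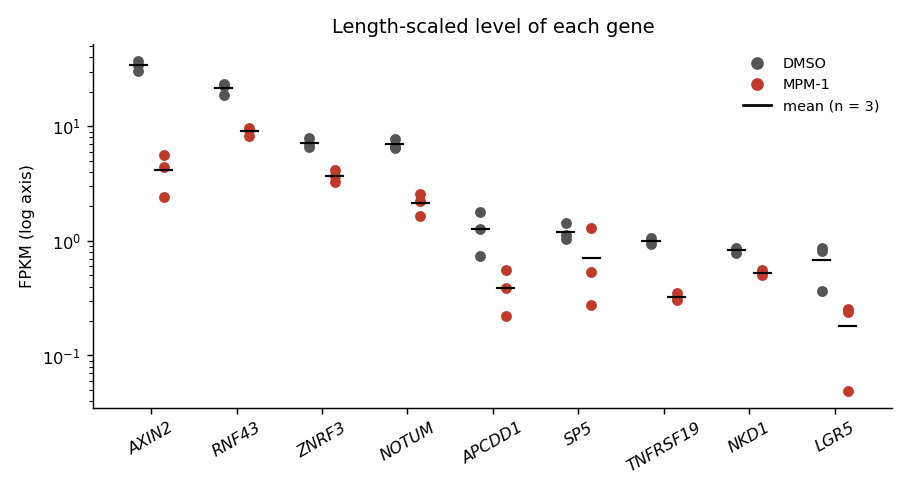
The FPKM of each measured feedback gene in each library is plotted on a log axis, with the genes ordered by their mean in DMSO the DMSO and MPM-1 libraries in different colours and a bar at each mean of 3. AXIN2 leads with DMSO at 30.2 to 37.6 FPKM, and RNF43 leads with MPM-1 at 8.27 to 9.76 FPKM.

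AXIN2 and RNF43 carried most of the feedback messages. The FPKM of the 9 genes summed to 67.32, 81.07 and 76.21 with DMSO and to 18.44, 24.03 and 21.39 with MPM-1. AXIN2 made up 44.91%, 46.35% and 45.3% of that sum with DMSO and 13.19%, 23.3% and 20.47% with MPM-1. Its share was thus lower in every MPM-1 library, and the leading place passed to RNF43. The log2 ratio of AXIN2 to RNF43 went from 0.66 ± 0.04 to −1.22 ± 0.63 (SD, n = 3), a difference of −1.88 (exact permutation test, two-sided, p = 0.1 and adjusted p = 0.1, the smallest the design allows).

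The genes also differed in how far libraries of the same treatment lay from each other. TNFRSF19 and NKD1 stayed within 0.13 of their treatment means on the log2 CPM scale. The widest were LGR5, at −1.35, 0.70 and 0.65 in the MPM-1 libraries, and SP5, at −0.08, −1.03 and 1.11. These wide genes were also among the least abundant, with 8 to 157 counts a library. AXIN2 deviated by −0.66, 0.46 and 0.20 in the MPM-1 libraries in spite of 326 to 715 counts there. MPM-1 replicate 1 was the lowest of its treatment in AXIN2, NOTUM, ZNRF3, APCDD1 and LGR5, 5 of the 9 genes, and it was the lowest for 36.2% of all genes. Along the second principal component, with 9.48% of the variance, that library lay at 33.1 and the other MPM-1 libraries at −25.2 and −12.3.

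**Figure D4:**
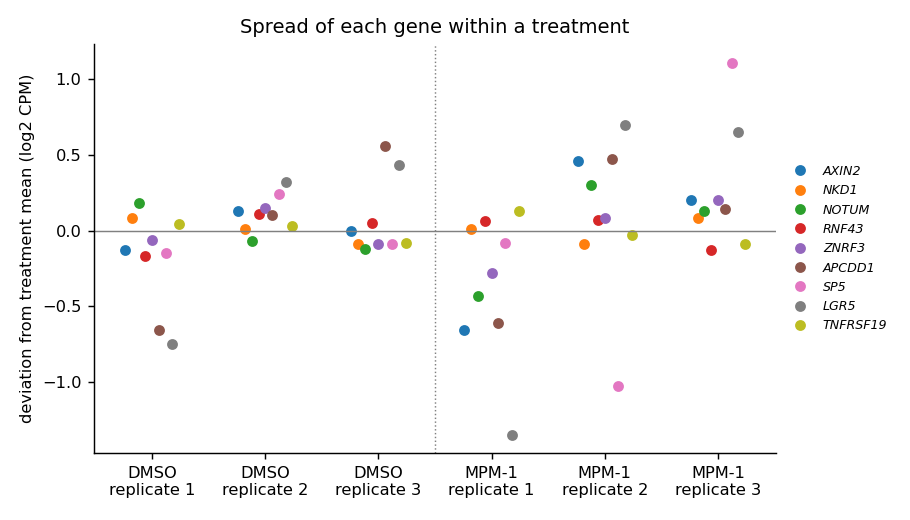
The deviation of each feedback gene from its treatment mean (log2 CPM) is plotted for the 3 DMSO and 3 MPM-1 libraries, with a colour for each gene and a point for each library. MPM-1 replicate 1 is low for LGR5 (−1.35) and AXIN2 (−0.66), and SP5 runs from −1.03 in MPM-1 replicate 2 to 1.11 in replicate 3.

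Other genes of the pathway were taken from lists by role. Beside the counts called in this and the following lists, 8.75% of all genes were called lower and 5.58% higher. Among Wnt ligands and secretion factors, 11 of 25 listed genes were in the table, of which 2 fell and 1 rose. WNT10B went from 5.3 ± 0.517 to 1.11 ± 0.18 CPM (log2 fold change −2.25) and WNT6 from 1.53 ± 0.134 to 4.32 ± 0.517 CPM (2.82-fold higher), and WNT4 fell by 1.91 on the log2 scale. The median of the ligand list was −0.28. Among receptors and co-receptors, 6 of the 14 in the table fell and 0 rose in edgeR (1 was higher at an unadjusted p under 0.05, and 0 were called higher by DESeq2 or limma), with a median of −0.76. The Frizzled receptor FZD4 fell most, from 8.92 ± 0.98 to 1.32 ± 0.354 CPM (log2 fold change −2.76), followed by FZD9 (−2.13, lost without DMSO replicate 2 at −2.05 and an adjusted p of 0.0115 in edgeR's quasi-likelihood test) and FZD1 (−2.11).

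Of 21 further antagonists of the pathway, 7 were in the table, with a median of −0.93. All 7 were below 0 with no overlap between treatments, which held for 33.3% of all genes. Each also had an adjusted p under 0.05, against 28.8% of all genes lower by that rule. Of the 7, 2 passed both thresholds. These were the DKK1 receptors KREMEN2, from 27 ± 2.47 to 9.89 ± 0.0711 CPM (log2 fold change −1.45), and KREMEN1, from 84.5 ± 4.73 to 40.9 ± 2.65 CPM (−1.05, and −0.99 without MPM-1 replicate 1). None of these antagonists was higher in edgeR at an unadjusted p under 0.05, and DESeq2 and limma called 0 higher.

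Most destruction complex and Dishevelled genes had values above 0. All 18 listed were in the table, with a median log2 fold change of 0.33, and 15 were above 0. Of these, 12 were higher at an adjusted p under 0.05 with no fold threshold, against 27.7% of all genes, although 0 passed the fold threshold in edgeR, DESeq2 or limma. The 2 that fell were AMER1, an APC-binding scaffold (log2 fold change −2.47), and APC itself, from 24.2, 23.8 and 22.3 to 10, 4.45 and 14.3 CPM (−1.28, adjusted p = 0.00727 in edgeR's quasi-likelihood test). The call of APC was lost when any library except MPM-1 replicate 3 was left out, with values from −1.32 to −0.92. CTNNB1, which encodes β-catenin, was at 267, 255 and 261 CPM with DMSO and at 344, 297 and 309 CPM with MPM-1, with a log2 fold change of 0.28 (SE 0.08, adjusted p = 0.0122 in edgeR's quasi-likelihood test) that passed neither threshold.

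Of 15 TCF factors and nuclear partners, 13 were in the table, with a median of −0.18. The co-repressor TLE2 was the only gene called lower (−1.86), and 0 were called higher by edgeR, DESeq2 or limma (3 were higher at an unadjusted p under 0.05). Among 32 other Wnt target genes, 24 were in the table and moved both ways, 6 lower and 6 higher, with a median of −0.18. The apoptosis inhibitor BIRC5 (−1.96), the ligand BMP4 (−1.71) and ENC1 (−1.65) fell most, and the co-receptor TDGF1 (3.23) and the urokinase receptor PLAUR (2.26) rose most. BMP4 and PLAUR were abundant, at 202 ± 9.55 and 61.8 ± 22.4 CPM and at 122 ± 32.1 and 581 ± 79.8 CPM with DMSO and MPM-1 (SD, n = 3).

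**Figure D5:**
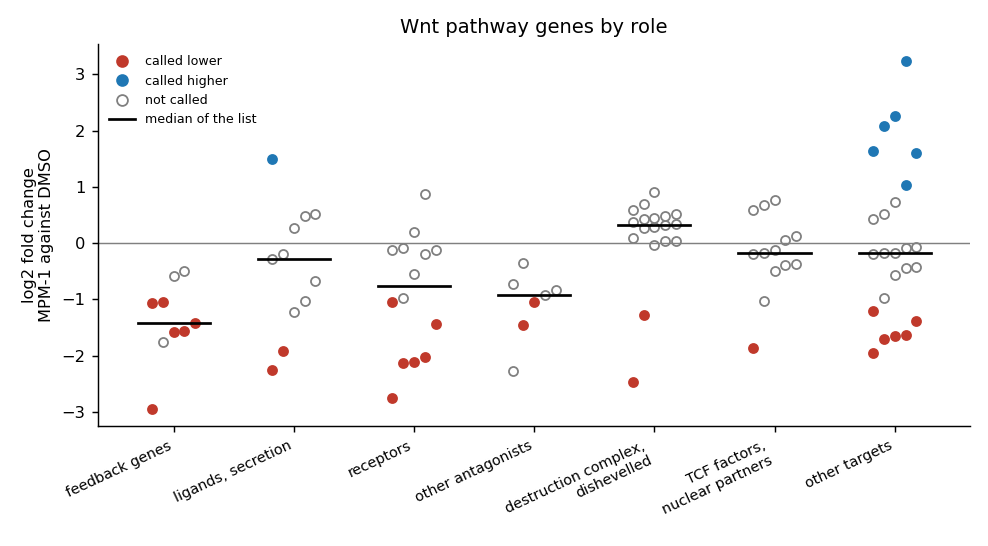
Each point is the log2 fold change (MPM-1 against DMSO) of a gene in the feedback list or in another Wnt list, grouped by role, with genes called lower in red, genes called higher in blue, uncalled genes open and a bar at each median. The medians are −1.42 for the feedback genes and 0.33 for the destruction complex and Dishevelled genes, and the other target genes spread to both sides.

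Genes with a pattern near that of AXIN2 were found by the Euclidean distance of log2 CPM, centred on each gene, over the 6 libraries and among the 12813 genes that averaged 1 CPM or more. Among the 5 nearest were EGLN3, an oxygen-sensing prolyl hydroxylase, at a distance of 0.393, PIK3R3, a regulatory subunit of PI3 kinase, at 0.45, PIF1, a DNA helicase, at 0.511, and C1QL1, a secreted C1q-like protein, at 0.519. No feedback gene was among these 5. The log2 fold changes of these named genes lay between −3.10 and −2.75, beside −2.94 for AXIN2, and since AXIN2 itself set the order these values are a description.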

How the data were processed

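mRNA libraries of SW480 cells were compared as DMSO against MPM-1 (3 libraries each), with groups taken from the sample labels. The authors deposited whole-number counts and FPKM per gene in a single table. Its columns of the authors' own comparison (log2 fold change and FDR) were not used. The submitters' processing notes name HISAT2, DESeq2 and mm10, a mouse build, whereas all 12127 Ensembl identifiers of the table matched the human annotation GENCODE 29 (GRCh38), from which positions were taken. The counting tool, its strand setting and the annotation were not given in the sources used here, so reads of overlapping genes may be shared.

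From the deposited counts, TMM-scaled CPM and edgeR 4.0.16 quasi-likelihood tests (limma 3.58.1, R 4.3.3) were computed over all 12982 genes, with Benjamini-Hochberg adjustment. Genes with an adjusted p under 0.01 and a change of 1 or more on the log2 scale were called. Total counts were 31733667 to 40269820 a library. All pairs of libraries of a treatment differed by more than sampling noise. The test was checked on simulated data.

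Genes were named by rule: every listed feedback gene, CTNNB1, up to 3 called genes with the largest fall and rise in each other Wnt list, and the 5 genes nearest to AXIN2. Some genes that the rule names are not reported here. Overlapping or neighbouring genes and AXIN1 were added for context. The genes and lists were chosen with earlier results of these data known. Alternatives were DESeq2 1.42.0 (its size factors in edgeR, and its own test), library size alone, a filter at an average of 50 counts, an adjusted p under 0.05 with no fold threshold, a replicate block, leaving out each library, and limma on log2(FPKM + 0.1) or log2(FPKM + 1) over genes averaging 1 FPKM or more or, with 0.1, over all genes. The sum of RNF43 and AC004687.2 was added after seeing the data. Same-numbered libraries did not deviate together (correlations 0.02, 0.11 and −0.07), so the numbers were not taken as pairs.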

Additional observations from a re-analysis of the deposited data

How the results depend on the processing

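All 9 feedback genes kept a log2 fold change below 0 under every alternative run. Their 117 gene-by-setting values leave out the rule with no fold threshold. Of these values, 105 kept the status of the main test, whether called or not called, 10 lost the call and 2 gained it. The 105 include NKD1 and SP5, each called in 0 of 12 settings. With limma on log2(FPKM + 0.1) or log2(FPKM + 1), only 4 of the 9 passed the filter of 1 FPKM and 3 of these were called. Leaving out a library gave 4 to 6 called feedback genes, with a median of −1.41 to −1.25. The median was −1.57 with library size alone, which moved the median of all genes from −0.026 to −0.176, and −1.25 with log2(FPKM + 1). The replicate block called 7 feedback genes lower, adding LGR5, with 1120 genes lower and 712 higher over the table, and changed no other feedback call.

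Across all genes, log2(FPKM + 1) called 716 lower and 351 higher, log2(FPKM + 0.1) called 445 higher, both over 11497 genes, and dropping the fold threshold (adjusted p under 0.05) gave 3740 lower and 3596 higher. That looser rule called 4 ligands lower and 3 higher, 1 receptor higher, 7 antagonists lower, 12 destruction complex genes higher, and 5 TCF genes lower and 3 higher. DESeq2 called 1 destruction complex gene and 2 TCF genes lower. The limma fits called 1 ligand lower with either pseudocount, 0 ligands higher and 3 receptors lower with log2(FPKM + 1), 0 destruction complex genes lower with either pseudocount and 1 without the filter, and 4 antagonists lower without the filter. Leaving out a library gave 1 to 3 antagonists lower, 1 to 2 destruction complex genes lower, 0 to 1 higher, and 0 to 1 receptors higher. The causes were not tested, except that the filtered limma fits tested fewer genes. APCDD1, LGR5, SP5 and TNFRSF19 had the fewest counts, 8 to 257 a library, and the part of depth in their errors was not tested.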
